A study of Mus musculus with 36 samples.

Results

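Hrk (harakiri) and 9 other genes of the Bcl2 family are described here: Bcl2, Bcl2l1, Bcl2l2, Mcl1, Bcl2l11, Bad, Bid, Bak1 and Bax. They were chosen because Hrk was higher in the cerebellum of tg -/- and lh -/- mice, with the question of whether other cell death genes follow it. The probe table gives 33 probe sets with 1 symbol for 9 of the 10 genes, of 45101 probe sets on the array: 2 for Hrk, 5 for Bcl2, 4 for Bcl2l1, 4 for Bcl2l2, 6 for Mcl1, 5 for Bcl2l11, 2 for Bad, 3 for Bid and 2 for Bak1. Bax was not analysed here. Of these, 26 passed a filter on dim probe sets (mean signal above the 40th percentile) in the cerebellum and 27 in the forebrain.

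The study measured mouse brain RNA, total RNA of either forebrain or cerebellum, on 36 1-colour Affymetrix arrays. Its 12 groups of 3 arrays are the +/+ and -/- animals of 3 lines, stg, tg and lh, in both tissues. These symbols are read as stargazer, tottering and lethargic, ataxic and absence-epileptic mice with inherited changes in the calcium channel genes Cacng2, Cacna1a and Cacnb4, which all cells of the animal carry. All comparisons are -/- against the +/+ animals of the same line, or between lines or tissues in +/+ animals. The labels used here give no age, sex, background strain or treatment, and they describe each array as RNA from 1 mouse without saying which arrays share a mouse. Their descriptions call the +/+ animals mutant too, so +/+ is read from the genotype symbol alone. The p-values therefore measure the spread between these arrays.

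The Bcl2 family decides whether a mitochondrion releases cytochrome c and so starts the caspase cascade. Bcl2, Bcl2l1 (Bcl-xL), Bcl2l2 (Bcl-w) and Mcl1 hold the effectors Bax and Bak1 in check. The BH3-only proteins Hrk, Bcl2l11 (Bim), Bad and Bid share with the rest of the family mainly the short BH3 stretch. With it they bind and disarm the protective members, and Bid and Bim can also activate the effectors directly. In neurons the Hrk and Bcl2l11 genes are known to be switched on when trophic support or activity is withdrawn, both through JNK signalling and Bcl2l11 also through FOXO factors.

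The stretches before the start of Hrk and of Bcl2l11 are shown because Hrk chose the set and Bcl2l11 was the only other member called between -/- and +/+ cerebellum. They are the 250 bases upstream of the annotated start, from RefSeq on build GRCm38.p6, plus strand, at chr5:118169514-118169763 for Hrk and chr2:128125788-128126037 for 1 of the 2 Bcl2l11 starts.
Hrk: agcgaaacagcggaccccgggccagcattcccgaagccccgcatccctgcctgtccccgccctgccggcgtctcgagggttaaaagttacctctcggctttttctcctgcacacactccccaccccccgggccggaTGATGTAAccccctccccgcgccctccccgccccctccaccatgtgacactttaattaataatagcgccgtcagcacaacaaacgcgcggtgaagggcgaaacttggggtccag
Bcl2l11: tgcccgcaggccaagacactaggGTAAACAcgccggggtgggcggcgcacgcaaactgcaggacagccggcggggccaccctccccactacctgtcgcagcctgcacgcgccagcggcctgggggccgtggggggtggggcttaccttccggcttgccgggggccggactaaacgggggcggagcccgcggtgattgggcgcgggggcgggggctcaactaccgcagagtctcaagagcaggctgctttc
Capitals in the Hrk stretch mark an ATF motif, TGATGTAA, 114 to 107 bases before the start. Those in the Bcl2l11 stretch mark a FOXO motif, GTAAACA, 227 to 221 bases before it. A CRE motif (TGACGTCA) and an AP-1 motif (TGACTCA) were searched too, with both strands read for each of the 4. The 14 windows of the 10 genes held the 2 matches shown and no others. The motifs were picked after these windows had been read, so the matches are only a description. The ATF motif stood in 317 of 32851 windows of this length (0.965%) and the FOXO motif in 3.17% of them, against 1.55% for CRE and 4.46% for AP-1. The Hrk window was 63.2% and the Bcl2l11 window 72% G and C, above the median of all windows, 52.4%.

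Before the values, the arrays were set against their labels. Cacng2 fell in stg -/- cerebellum from a mean signal of 480 to 25.0 (log2 -4.53) and in the forebrain from 353 to 27.2 (-3.61). Cacnb4 fell in lh -/- forebrain (-1.08, adjusted p = 0.0285), and its cerebellar value was -0.61 (adjusted p = 0.0814). Cacna1a did not pass in either tissue of tg (0.13 and 0.18). Summed signals of 7 granule cell markers were 25658 to 33501 in the cerebellum and 1085 to 2132 in the forebrain, and those of 5 forebrain neuron markers 543 to 814 and 2143 to 4792, in the order of the labels. Array medians of log2 signals spanned 0.326, and no array had a mean r below 0.937 with the rest of the same tissue.

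Hrk was at a low signal in every +/+ cerebellum and about 3 times higher in the cerebellum of tg -/- and lh -/- mice, but not of stg -/- mice. Probe set 1439854_at gave 143.9, 149.1 and 200.8 in tg -/- cerebellum and 46.8, 53.8 and 55.5 in tg +/+ cerebellum. In lh it gave 158.5, 145.6 and 123.0 in -/- and 42.4, 66.9 and 26.5 in +/+ animals. In stg it gave 44.0, 74.8 and 52.9 in -/- and 71.1, 91.3 and 66.8 in +/+ animals. All 6 tg -/- and lh -/- arrays lay above the other 12 cerebellum arrays, which ran from 26.5 to 91.3, while the stg groups overlapped. The changes, on the scale of log2(signal + 2.98), were 1.59 in tg (3.02-fold) and 1.67 in lh (3.18-fold), and -0.42 in stg, each with SE 0.258. These values chose the gene, so they are given without a test.

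The second Hrk probe set, 1450366_at, was dimmer and less even. Its means were 72.3 ± 18.5 (SD, n = 3) in tg -/- and 32.8 ± 9.17 in tg +/+ cerebellum, with -/- arrays from 57.6 to 93.1 and +/+ arrays from 27.4 to 43.4, a change of 1.07 with no overlap. In lh they were 68.7 ± 21.1 and 42.3 ± 18.4, a change of 0.70, and the arrays overlapped. In stg they were 32.6 ± 6.60 and 37.5 ± 9.94, a change of -0.18. The direction in each line was that of 1439854_at, and the changes were smaller. Across the 18 cerebellum arrays both probe sets had r = 0.793, a description of arrays that share the same RNA and hybridisation.

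**Figure D1:**
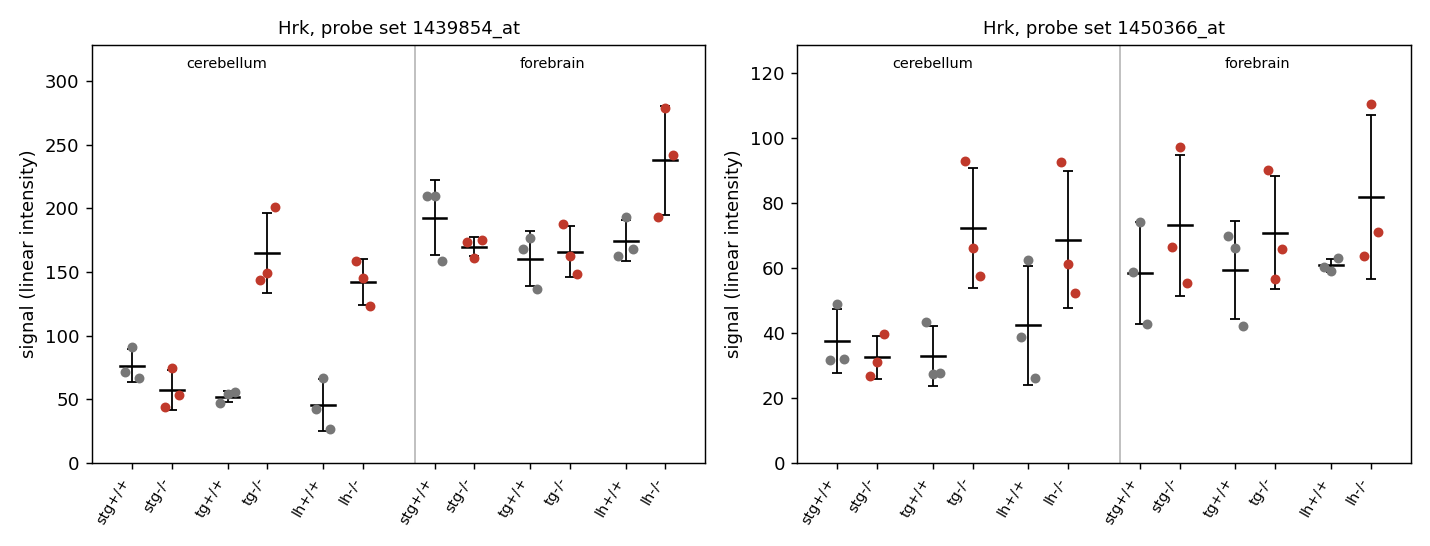
Signal (linear intensity) of both Hrk probe sets on each of the 36 arrays, grey for +/+ and red for -/-, with the group mean (bar) and SD (whiskers), n = 3. At 1439854_at the tg -/- and lh -/- cerebellum arrays, 123.0 to 200.8, stand above all other cerebellum arrays and within the forebrain's range of 136.5 to 278.8 or just under it.

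In the forebrain Hrk stood above its level in +/+ cerebellum in every group, and no difference between genotypes passed. At 1439854_at the 18 forebrain arrays ran from 136.5 to 278.8, all above the highest +/+ cerebellum array, 91.3. The changes were -0.17 in stg, 0.05 in tg and 0.43 in lh (SE 0.155), and none passed in limma (adjusted p = 0.9997 in lh, beside 0.0148% of all probe sets called there). The lh arrays were 193.4, 278.8 and 241.7 in -/- and 162.4, 193.2 and 168.3 in +/+ animals, so the groups were apart by the narrowest margin. In tg forebrain the sign of the change turned, to -0.04 without tg -/- array 1 and to -0.06 without tg +/+ array 3. At 1450366_at the forebrain changes were 0.30, 0.25 and 0.37 in stg, tg and lh.

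Ordered by mean signal at 1439854_at, the 12 groups began with lh -/- forebrain at 238 ± 42.8 (SD, n = 3). The cerebellum of tg -/- mice came 6th at 165 ± 31.5, just above tg +/+ forebrain at 161 ± 21.3, and the cerebellum of lh -/- mice came 8th at 142 ± 17.95. The remaining 4 were the cerebellum of stg +/+ at 76.4, stg -/- at 57.2, tg +/+ at 52.0 and lh +/+ at 45.3. Of the 11 pairs of neighbours in this order 10 overlapped; the exception was the step from lh -/- down to stg +/+ cerebellum. At 1450366_at all 11 pairs overlapped.

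Summed signals of some cell type markers also stood apart in the cerebella with high Hrk. The summed signal of 8 microglia markers was 1799 to 2062 in tg -/- against 1579 to 1664 in tg +/+, 1878 to 1950 against 1315 to 1506 in lh, and 1408 to 1894 against 1348 to 1445 in stg, where the groups overlapped. All 6 microglia markers tested changed upward in each line, stg included, with a median change of 0.30 in stg, 0.30 in tg and 0.43 in lh. None of the 6 was called in any line, and none of the 8 had a mean signal near 0 (lowest mean 15.3, Itgam in lh +/+). The summed signal of 5 choroid plexus markers overlapped between -/- and +/+ in each line, but Ttr makes up most of it. All 5 were above 0 in each line and none was called, with a median change of 0.43 in stg, 0.67 in tg and 0.95 in lh and the largest in lh, Kl at 1.57 and Folr1 at 1.54. In lh -/- the sum of 7 granule cell markers was also lower (26354 to 27191 against 31001 to 33501) and that of 7 astrocyte and Bergmann glia markers higher (11112 to 11901 against 9359 to 10874), without overlap, while both overlapped in tg. Sums of 6 Purkinje cell markers and of 5 forebrain neuron markers overlapped in each line. Of the latter Emx1 and Tbr1 had means of 2.69 and 3.53 in tg -/- cerebellum, at about the constant added before the logarithm. The part of these cells in the Hrk values was not tested, and in whole tissue fewer cells of a type and less RNA per cell cannot be told apart.

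Bcl2l11, which encodes the BH3-only protein Bim, rose in the cerebellum of stg -/- mice, the line in which Hrk was not raised. Probe set 1435448_at read 303.1, 267.6 and 245.6 in stg -/- and 143.5, 165.0 and 138.2 in stg +/+ cerebellum. Probe set 1456005_a_at read 211.0, 231.4 and 300.4 against 110.0, 112.2 and 160.9. Each -/- array lay above each +/+ array at both. The changes were 0.86 (1.81-fold, SE 0.156, adjusted p = 0.00557) and 0.94 (1.92-fold, SE 0.179, adjusted p = 0.00751). These were the 2 calls among the 24 probe sets of members other than Hrk tested in stg cerebellum, beside 1.3% of all 27022 probe sets called (0.525% higher). Both probe sets report 1 gene, so they are not independent of each other. The second call was lost without stg -/- array 3 (adjusted p = 0.0619) or stg +/+ array 1 (0.0552), and with only the 6 arrays of stg cerebellum fitted (0.0549), while 1435448_at kept its call under all 16 alternatives.

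The dimmer Bcl2l11 probe sets ran the same way without passing. At 1435449_at the stg -/- arrays read 90.0, 59.7 and 87.6 and the +/+ arrays 54.7, 30.6 and 36.5 (0.93, SE 0.267, adjusted p = 0.113), again with no overlap. At 1456006_at the change was 0.41, with overlap. The fifth probe set, 1426334_a_at, was below the filter, with means of 34.4 and 15.99 in stg.

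At the 2 called probe sets the values in the other lines were smaller, and none passed. At 1435448_at the lh arrays read 156.6, 203.5 and 154.0 in -/- and 114.4, 106.7 and 120.9 in +/+ cerebellum, with no overlap (0.57, adjusted p = 0.221). In tg they read 157.4, 146.8 and 165.8 against 106.4, 164.7 and 147.8, with overlap (0.18). At 1456005_a_at the changes were 0.44 in lh (adjusted p = 0.528) and 0.20 in tg, both with overlap. Over the 4 tested probe sets and 3 lines all 12 cerebellar values were above 0, the lowest 0.18. At 1456006_at the value was 0.87 in lh, above the 0.41 of stg. The dim 1426334_a_at, not tested, was 0.99 in stg, -0.60 in tg and 1.26 in lh.

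The mean effect of the 3 lines and the difference between their effects were tested in the same limma fit. The mean effect passed at 1435448_at (0.54, SE 0.0900, adjusted p = 0.00269) and at 1456005_a_at (0.53, SE 0.103, adjusted p = 0.00917), the only 2 of 24 member probe sets, beside 1.97% of all probe sets. It was 0.53 at 1435449_at (adjusted p = 0.0936). Neither call of the mean effect held when replicate 1, 2 or 3 was left out of every group. A difference of the effect among the lines was called at no member probe set of the 24 in limma, beside 0.315% of all called. Its adjusted p was 0.521 and 0.533 at these Bcl2l11 probe sets. At an unadjusted p under 0.05 it gave 4 of the 24, a threshold at which the share of all was not counted. The rise in stg is therefore not shown to be larger than the values in tg and lh.

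In the forebrain no Bcl2l11 value passed, and 7 of 9 were above 0. At 1435448_at the stg means were 93.2 ± 11.6 in -/- and 81.7 ± 26.8 in +/+ mice (0.23). The difference between the cerebellar and the forebrain effect in stg did not pass either (0.63, adjusted p = 0.615 at 1435448_at; 0.79, adjusted p = 0.609 at 1456005_a_at). The forebrain mean effect of the 3 lines and its difference among them were called by limma at 0 of 25 member probe sets, beside 0.0148% and 0.0259% of all called. At an unadjusted p under 0.05 there were 0 in both.

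The +/+ animals of the lines were not alike at 1456005_a_at. Its lh +/+ cerebellum arrays read 66.5, 75.6 and 63.4, below every stg +/+ array and every tg +/+ array (132.5, 153.8 and 133.4). The groups differed in limma's test over the 3 of them (adjusted p = 0.0115), by 0.9996 between tg and lh (adjusted p = 0.00991) and by -0.85 between lh and stg (adjusted p = 0.0347). This was the 1 call among 24 member probe sets, beside 0.881% of all, and it was lost on leaving out any replicate number. At 1435448_at the same groups read 6.87 in lh, 7.13 in tg and 7.24 in stg on the log2 scale and were not called (adjusted p = 0.545). At the dim 1456006_at the cerebellar +/+ groups read 3.54 in lh, 4.89 in tg and 5.09 in stg, lh again lowest, without a call. In the forebrain 0 of 25 member probe sets were called in this test by limma, beside 0.414% of all called. At an unadjusted p under 0.05 there was 1, again 1456005_a_at, and the share of all at that threshold was not counted. Its forebrain +/+ groups read 5.53 in lh, 6.65 in tg and 6.19 in stg on the log2 scale, lh lowest as in the cerebellum. At 1435448_at lh was instead the highest in the forebrain, 6.62 against 6.24 in tg and 6.36 in stg.

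**Figure D2:**
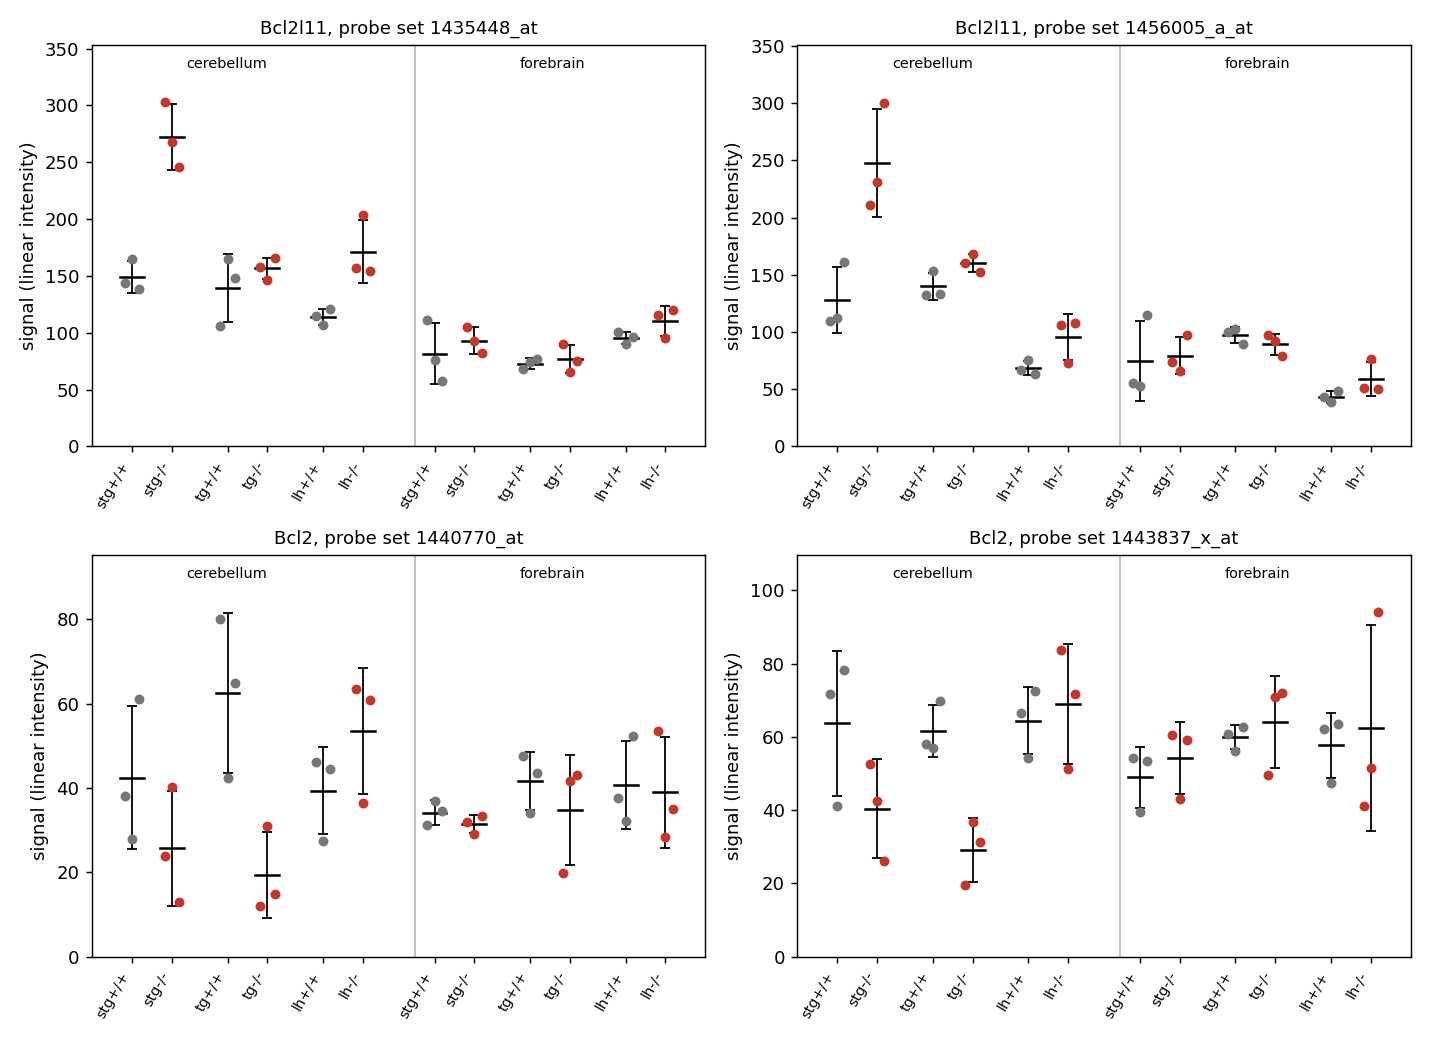
Signal (linear intensity) on each of the 36 arrays for 2 Bcl2l11 and 2 Bcl2 probe sets, grey for +/+ and red for -/-, with group mean (bar) and SD (whiskers), n = 3. Both Bcl2l11 probe sets separate stg -/- from stg +/+ cerebellum, and both Bcl2 probe sets separate tg -/- from tg +/+ cerebellum at signals up to 80.1.

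Granule cell and astrocyte marker sums stood apart in stg -/- cerebellum, where Bcl2l11 rose. The sum of 7 granule cell markers was 25658 to 27106 in stg -/- against 27859 to 32665 in stg +/+, with no overlap, as in lh above. In tg it was 30033 to 32325 against 31630 to 33475, with overlap. Of the 7 markers only Gabra6, a GABA receptor subunit of granule cells, was called in stg (-0.41, limma adjusted p = 0.0129). It read -0.34 in tg and -0.36 in lh (limma adjusted p = 0.0888 and 0.104). Pax6 (0.19) and Fat2 (0.08) changed upward in stg without a call. The sum of 7 astrocyte and Bergmann glia markers was 11938 to 12715 against 11376 to 11703 in stg, also with no overlap. Of these only Gfap, an astrocyte filament gene, was called in stg (0.93, limma adjusted p = 0.0283). It read 0.56 in tg and 0.73 in lh, neither called. Slc1a2 (-0.04) and S100b (-0.06) changed downward in stg without a call. No marker of either list had a mean signal near 0, and the part of both lists in the Bcl2l11 values was not tested.

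Among the protective members none passed in any line of the cerebellum. Bcl2 itself came nearest, lower in tg -/- at 2 of its 5 probe sets. Probe set 1440770_at read 11.98, 31.1 and 15.0 in tg -/- and 80.1, 42.4 and 65.0 in tg +/+ cerebellum, with no overlap (-1.60, SE 0.399, adjusted p = 0.0934). Probe set 1443837_x_at read 19.6, 36.7 and 31.3 against 58.1, 57.0 and 69.9, also with no overlap (-1.04, SE 0.291, adjusted p = 0.165). Neither passed under any alternative, where the smallest adjusted p were 0.0630 and 0.0869. The other 3 Bcl2 probe sets changed by -0.34, -0.20 and -0.12 in tg, all with overlap, so the probe sets of this gene did not give 1 size of change.

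In the other lines Bcl2 did not take 1 direction. At 1440770_at the change was -0.71 in stg and 0.41 in lh. At 1443837_x_at it was -0.62 in stg (adjusted p = 0.454) and 0.08 in lh, with overlap in both. Of the 15 cerebellar values of Bcl2 only 4 were above 0. The smallest adjusted p for a difference of effect among the lines, over all members other than Hrk, was that of Bcl2 1440770_at, 0.347.

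Mcl1, a protective member with a short-lived protein, was steady. Its 6 probe sets changed by -0.11 to 0.20 over the 3 lines of the cerebellum, and the 95% intervals of these changes ran from -0.386 to 0.473. Group means at its brightest probe set, 1437527_x_at, were 888 to 950 in -/- and 903 to 930 in +/+ cerebellum. In tg forebrain the same probe set was 714 against 829, with each -/- array below each +/+ array (-0.21, adjusted p = 0.841).

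Bcl2l1, the main protective member of mature neurons, was not called at any of its 3 tested probe sets. Its cerebellar changes were -0.34 to 0.19, with intervals from -0.763 to 0.673. At 1420888_at, the brightest, the stg means were 349 and 386, the -/- arrays below all +/+ arrays (-0.15, adjusted p = 0.645), while the value in tg was 0.13. In the forebrain the largest value was 0.56 in lh at 1420887_a_at, with overlap (adjusted p = 0.9997).

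Bcl2l2 had 1 bright and 2 dim tested probe sets. At the bright one, 1423572_at, the cerebellar changes were -0.01 in stg, 0.02 in tg and -0.18 in lh, where the means were 625 and 709 (adjusted p = 0.715). The dim 1430453_a_at read 31.97 against 48.4 in lh (-0.73, SE 0.402, adjusted p = 0.728), with overlap. The intervals for this gene, from -1.57 to 0.814, are wider than those of Mcl1.

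Bak1, the effector with probe sets here, was dim and not called. Its tested probe set 1418991_at read 36.6 against 28.0 in lh (0.39, SE 0.286, adjusted p = 0.834), -0.02 in stg and 0.07 in tg on the log2 scale, with overlap in all. Its other probe set was below the filter.

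Bad, the BH3-only protein held inactive by phosphorylation, was not called at either probe set. Its cerebellar changes ran from -0.16 to 0.19, with intervals from -0.763 to 0.793. At 1416583_at the group means were 148 to 163 in -/- and 140 to 157 in +/+ cerebellum.

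Bid, which caspase-8 cuts into its active form, had no probe set above the filter in the cerebellum. Its brightest, 1417045_at, still gave 46.3, 35.0 and 39.6 in stg -/- against 29.9, 12.8 and 24.3 in stg +/+ cerebellum (0.83, not tested), each -/- array above each +/+ array. In tg it gave 31.8 against 24.9 and in lh 18.7 against 17.3, with overlap in both. In the forebrain, where 2 of its 3 probe sets were tested, none passed.

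Counted over the 24 tested probe sets of members other than Hrk, the cerebellum gave 2 calls in stg and 0 in tg and in lh, beside 0.574% of all probe sets called in tg and 0.155% in lh. At an unadjusted p under 0.05 limma gave 4 in stg, 2 in tg and 2 in lh, beside 10.7%, 7.28% and 7.62% of all. The -/- and +/+ arrays did not overlap at 4, 3 and 1 of the 24, beside 15.6%, 14% and 12.7% of all, shares near or below those of the whole array. The 4 in stg were 3 Bcl2l11 probe sets above (8.13% of all lay above) and 1 Bcl2l1 probe set below (7.48% of all). The 3 in tg were the 2 Bcl2 probe sets named and Mcl1 1456381_x_at, whose change was -0.07. The median change of the 24 was -0.03 in stg, -0.06 in tg and 0.11 in lh, beside 0.01, -0.01 and 0.02 over all probe sets.

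In the forebrain limma called 0 of 25 member probe sets in each line, beside 0.0111% of all called in stg, 0.189% in tg and 0.0148% in lh. At an unadjusted p under 0.05 it gave 0, 1 and 1, beside 2.55%, 5.68% and 3.87% of all. The arrays did not overlap at 0, 3 and 1 of the 25, beside 7.45%, 9.7% and 10.7% of all. The median changes were -0.03 in stg, -0.09 in tg and 0.05 in lh. A difference between the effects in the cerebellum and the forebrain was tested at 23 member probe sets (without Hrk and Bid). In each line limma called 0 of the 23, beside 0.248% of all called in stg, 0.0259% in tg and 0.0111% in lh. At an unadjusted p under 0.05 it gave 2 in stg, 2 in tg and 1 in lh. The share of all probe sets at that threshold was not counted for this test.

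**Figure D3:**
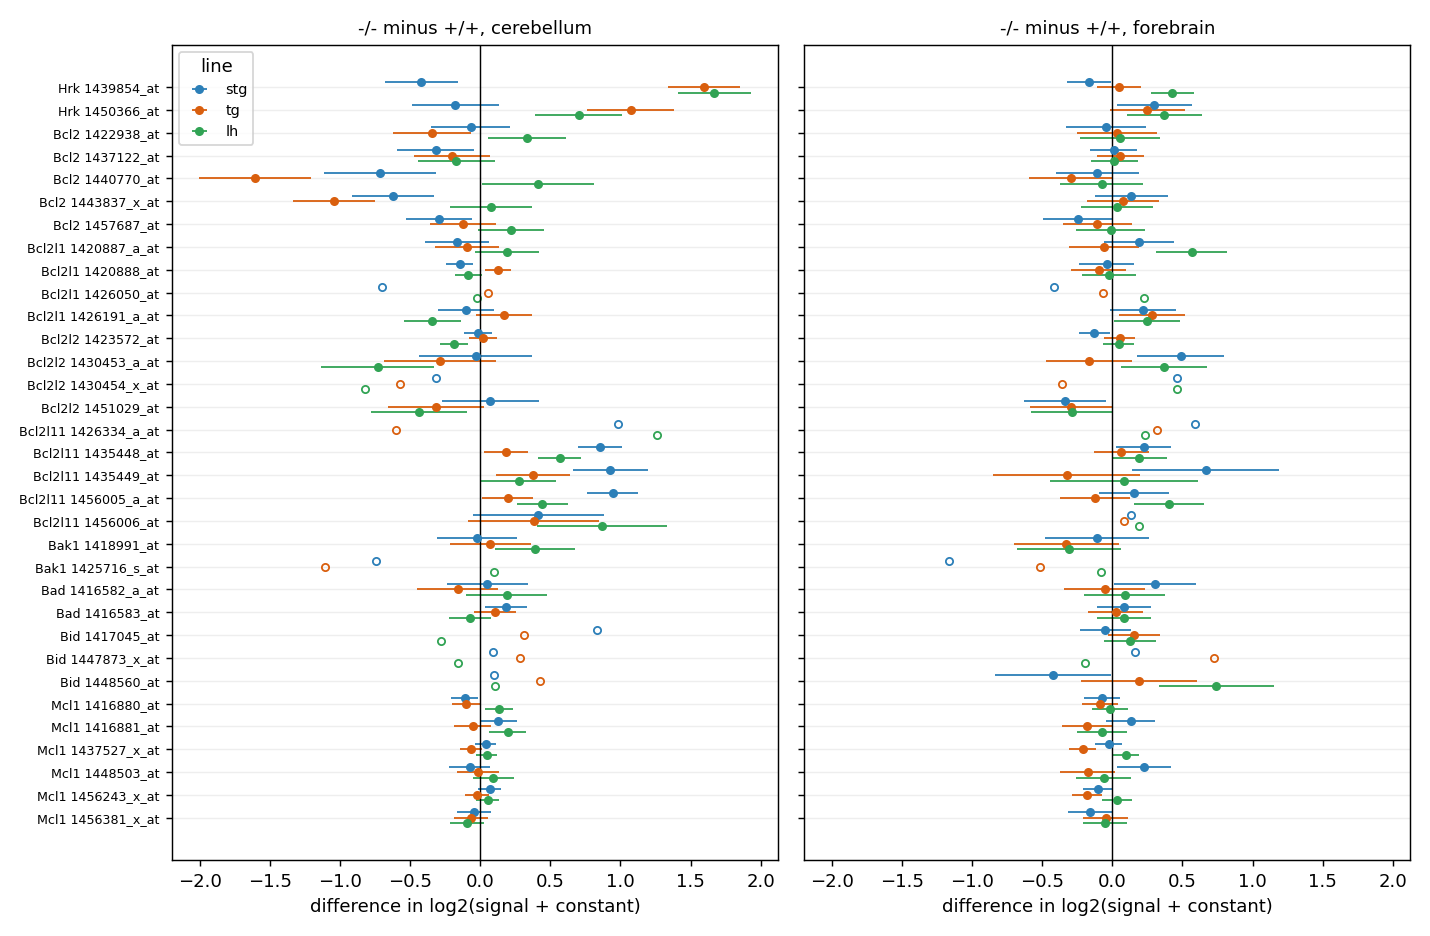
Change of each of the 33 probe sets, -/- minus +/+, as a difference in log2(signal + 2.98), in the cerebellum (left) and the forebrain (right), with the standard error for probe sets that passed the filter (filled) and none for those below it (open). The 2 Hrk probe sets stand to the right in tg and lh cerebellum, the Bcl2l11 probe sets stand right of 0 in stg, 2 Bcl2 probe sets stand to the left in tg, and the Mcl1 values lie close to 0.

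In +/+ mice most member calls between the tissues were higher in the cerebellum. Among 23 tested probe sets of members other than Hrk and Bid, 9 were higher there, 1 was lower and 13 were not called, with 9 arrays a tissue. That is 43.5% called, beside 58.2% of all probe sets (32.4% higher, 25.8% lower), a share below that of the whole array. Whether an animal gave both tissues is not in the labels, so no pairing by animal was used.

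Bid and Hrk stood lower in the cerebellum but are given without a test. At Bid 1417045_at, below the filter in the cerebellum and above it in the forebrain, the 9 forebrain arrays ran from 85.4 to 147, with a median of 114, and the 9 cerebellum arrays from 11.3 to 33.4, with a median of 21.0. At Hrk 1439854_at the arrays also did not overlap, with a median of 168 in the forebrain and 55.5 in the cerebellum, 26.5 to 91.3 against 136 to 210 (-1.61). At Hrk 1450366_at the difference was smaller (-0.66) and the arrays overlapped, 26.0 to 62.3 in the cerebellum against 42.2 to 74.3 in the forebrain. Neither Hrk value has a test, because the cerebellum arrays are those of the comparison that chose the gene. Bcl2 was lower in the cerebellum at 1437122_at (-0.61, SE 0.130, adjusted p = 0.000168), where the arrays did not overlap, and its other 4 probe sets were not called.

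The members higher in the cerebellum were Bcl2l11, Mcl1 and Bcl2l1. Bcl2l11 was higher by 0.67 at 1435448_at (SE 0.102), with a median of 138 against 76.7, and by 0.65 at 1456005_a_at (SE 0.127), with overlap at both. By line the difference at 1435448_at was 0.89 in stg, 0.89 in tg and 0.24 in lh. The other tested Bcl2l11 probe set, 1435449_at, was not called (0.51, limma adjusted p = 0.0811). Mcl1 was higher at 5 of its 6 probe sets, by 0.36 at 1416880_at, where the cerebellum arrays (479 to 601) all lay above the forebrain arrays (367 to 462). Bcl2l1 was higher at 2 of 3 tested probe sets, by 0.46 at 1420887_a_at (adjusted p = 0.00795) and 0.26 at 1420888_at (adjusted p = 0.0158). Bad, Bak1 and Bcl2l2 were not called.

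**Figure D4:**
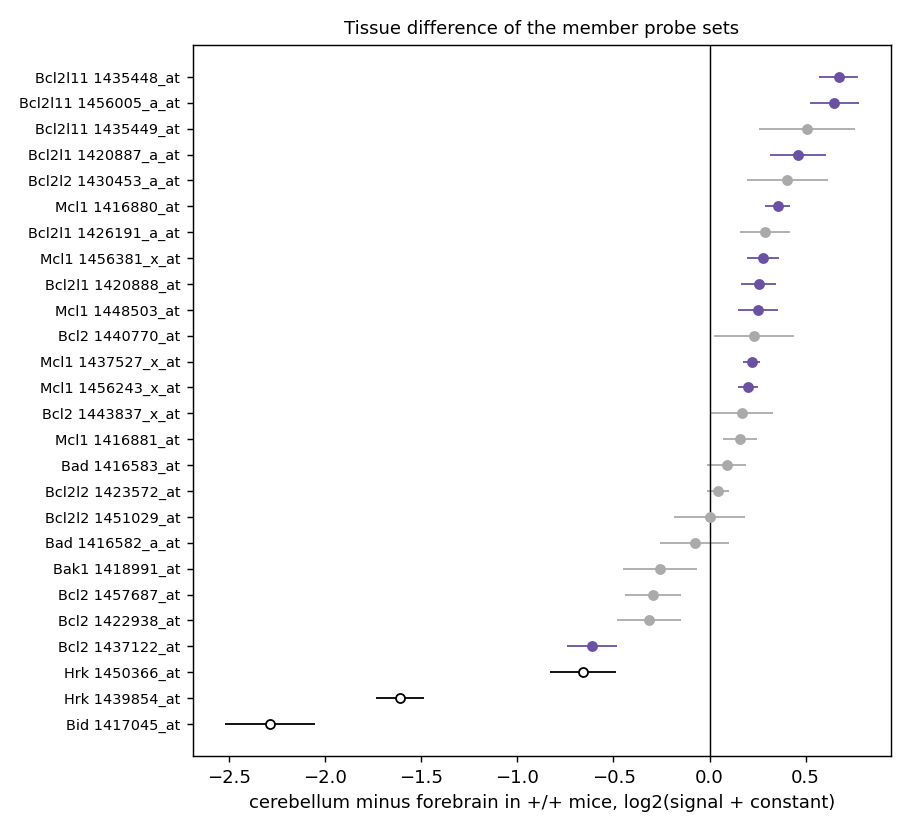
Cerebellum minus forebrain in +/+ mice, as a difference in log2(signal + 2.98), for 26 member probe sets, with standard errors (9 arrays a tissue). Purple marks calls at an adjusted p under 0.05, grey no call and white Hrk and Bid, given without a test; Bid and Hrk lie far to the left and Bcl2l11 farthest to the right.

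Cell death genes outside the chosen family were read from lists of 71 genes, 60 of them with a probe set and 46 tested in each tissue, at 1 probe set a gene. In the cerebellum limma called 1 of the 46 in stg and 0 in tg and in lh, beside 1.3%, 0.574% and 0.155% of all probe sets called. At an unadjusted p under 0.05 it gave 11, 2 and 6, beside 10.7%, 7.28% and 7.62% of all. The call was Jun, the AP-1 subunit that JNK phosphorylates, which fell from 483 ± 33.3 to 308 ± 53.4 (SD, n = 3) in stg -/- cerebellum (-0.65, SE 0.143, adjusted p = 0.0244). It was lost in 7 of 16 alternatives, 5 of which leave out 1 array: stg -/- array 2 or 3, or stg +/+ array 1, 2 or 3, with adjusted p = 0.0544 to 0.136.

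Same-numbered stg cerebellum arrays deviated together (r 0.156, 0.188 and 0.380), but the labels do not say that these numbers pair arrays. In tg (0.292, 0.0404 and 0.244) and lh (0.225, 0.0948 and 0.333) not every r reached the limit of 0.1. The other r there were of like size. The same-numbered array was the best match for 3 replicate numbers in stg, 2 in tg and 3 in lh, so stg does not stand apart by this count. Whether the numbers pair arrays is not established in any line, and the main fits do not use them. As an alternative, with a replicate block that treats same-numbered arrays as pairs, 4 of the 46 genes passed in stg. They were Jun (adjusted p = 0.000736), Foxo1, a FOXO factor (0.52, adjusted p = 0.0412; 0.0720 without the block), Tnfrsf1a, a receptor of tumour necrosis factor (0.58, 0.0486; 0.110 without it), and Mapk10, the neuronal JNK (-0.24, 0.0437; 0.805 without it). The same block raised the calls over all probe sets in every line, from 352 to 1018 in stg, 155 to 429 in tg and 42 to 211 in lh. The 2 Bcl2l11 calls held with it (adjusted p = 0.00623 and 0.00305).

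The BH3-only genes outside the family list, with 3 of 6 tested, took different directions in the lines. Their median change was -0.44 in stg, 0.45 in tg and 0.24 in lh, and none was called. At an unadjusted p under 0.05 limma gave 3 in stg, 1 in tg and 0 in lh, beside 10.7%, 7.28% and 7.62% of all probe sets. Bbc3 (Puma), which p53 and FOXO factors induce, was 97.1 ± 2.82 in tg -/- and 58.7 ± 10.5 in tg +/+ cerebellum, with no overlap (0.71, adjusted p = 0.110). It was 68.2 ± 9.13 against 93.2 ± 9.94 in stg, also with no overlap (-0.44, adjusted p = 0.366), and 0.33 in lh. Bmf, which binds the protective members, read -0.76 in stg (adjusted p = 0.321) and 0.45 in tg.

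In the other lists nothing passed in the cerebellum without the block beyond Jun, and the genes with the smallest p per list are named. Of 12 tested caspase and apoptosome genes these were Diablo (-0.33) and Cycs (-0.25) in stg, Casp12 (0.49) and Endog (0.14) in tg, and Casp8 (0.47) and Casp12 (0.23) in lh. Of 6 death receptor genes they were Tnfrsf1a and Dapk1 (0.43) in stg, Cflar (0.25) and Tradd (-0.26) in tg, and Tnfrsf1a (0.54, adjusted p = 0.299) and Cflar (0.37) in lh. Among 4 inhibitors of apoptosis they were Birc2 (0.29) and Birc3 (-0.91) in stg, Birc2 (-0.09) and Birc3 (0.30) in tg, and Birc2 (0.15) and Xiap (-0.07) in lh. The caspase, receptor and inhibitor genes thus had no value past the test in the lines with high Hrk.

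The remaining lists were as quiet. Of 13 tested stress kinase, FOXO and p53 pathway genes the smallest p in tg were those of Mapk8ip1, a JNK scaffold (0.28, adjusted p = 0.729), and Mapk8 (-0.20), and in lh those of Map2k4, a kinase of JNK (-0.33, adjusted p = 0.112), and Foxo3 (-0.28). Among 2 tested genes of more distant Bcl2-like proteins, Bok read 0.31 in stg, 0.14 in tg and -0.56 in lh (adjusted p = 0.493), and Bcl2l13 -0.09, 0.16 and -0.12. Among 4 genes of the mitochondrial pore the smallest p were those of Vdac1 (0.20) and Ppif (0.19) in stg, Vdac2 (-0.04) and Vdac3 (0.02) in tg, and Vdac2 (-0.12) and Vdac1 (-0.13) in lh. Kcnip3 (DREAM), a known repressor of Hrk transcription, read -0.37 in lh with each -/- array below each +/+ array (278 against 357, adjusted p = 0.414), -0.19 in tg and 0.06 in stg. C1qbp (p32), a mitochondrial protein that Hrk binds, read 0.08, 0.02 and -0.004 in stg, tg and lh.

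In the forebrain limma called 0 of the 46 genes in each line, beside 0.0111%, 0.189% and 0.0148% of all probe sets called in stg, tg and lh. At an unadjusted p under 0.05 it gave 1, 2 and 0, beside 2.55%, 5.68% and 3.87% of all. Their median change was -0.02 in stg, -0.03 in tg and 0.01 in lh.

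The genes whose cerebellar pattern was most like Hrk were found by Pearson's r with 1439854_at over the 18 cerebellum arrays, among 12201 genes with a tested probe set. The highest was Th, tyrosine hydroxylase, at r = 0.889, followed by Arrdc3 (0.862), Prmt2 (0.816), Tac1, the precursor of substance P (0.790), Hpgd (0.790), Etnppl (0.788), Tpd52l1 (0.779) and Qdpr, which recycles the cofactor of tyrosine hydroxylase (0.768). After centring each line the highest were Th (0.920), Arrdc3 (0.870) and Etnppl (0.841). All arrays share 1 hybridisation for both genes of a pair, and the values are descriptions without a test.

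For Th and Tac1 these r values rest on a step between sets of arrays, because the 6 tg -/- and lh -/- arrays stood apart from the other 12. Th read 551, 606 and 617 in tg -/- and 562, 568 and 475 in lh -/- cerebellum, against 29.0 to 58.9 on the other 12 arrays. Within the 6 the r with Hrk was 0.811 for Th, 0.573 for Arrdc3 and -0.41 for Tac1, and within the 12 it was 0.271, 0.604 and -0.09. Prmt2 had r = -0.03 within the 6 and 0.708 within the 12. Its signals did not form such a step, with a tg -/- array at 316 and a tg +/+ array at 322. The r of the members other than Hrk over the 18 arrays ran from -0.36 (Bcl2 1443837_x_at) to 0.176 (Mcl1 1416881_at), with 0.124 for Bcl2l11 1435448_at. After centring each line they ran from -0.40 (Mcl1 1456381_x_at) to 0.321 (Bak1 1418991_at), with 0.304 for Bcl2l11 1435448_at.

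**Figure D5:**
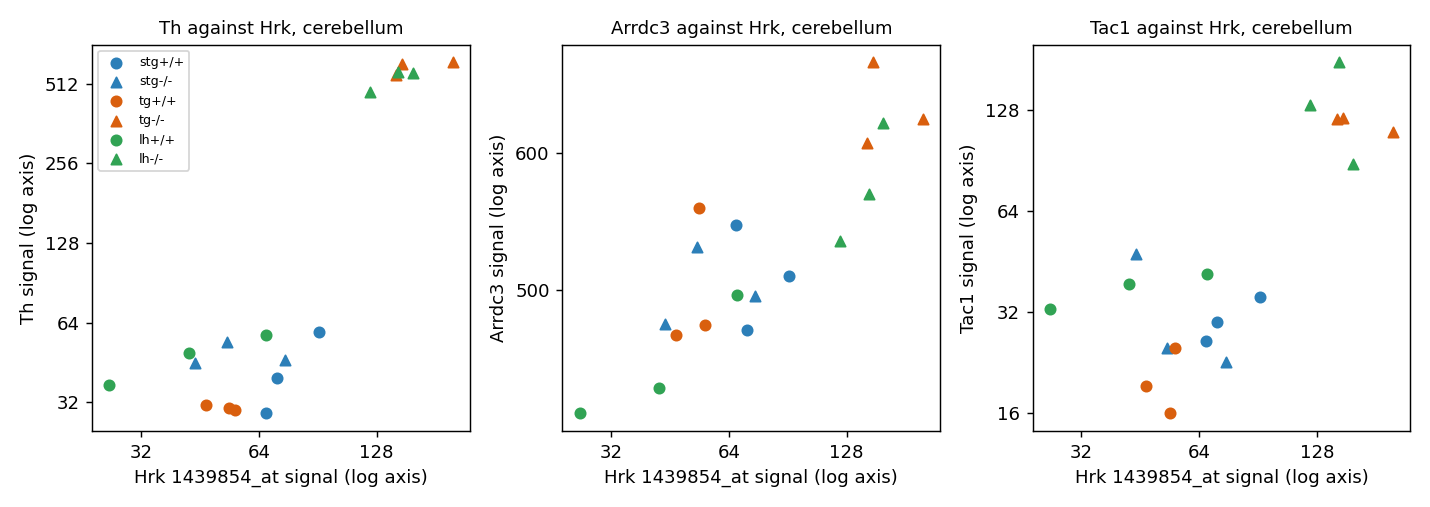
Signal of Th, Arrdc3 and Tac1 against that of Hrk 1439854_at on the 18 cerebellum arrays (all axes logarithmic), circles for +/+ and triangles for -/-, coloured by line. The 6 tg -/- and lh -/- arrays form a set of their own at the upper right for Th and Tac1, with Hrk at 123.0 to 200.8, and the stg -/- arrays lie among the +/+ arrays.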

How the data were processed

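The authors deposited a linear intensity for each probe set on each array. No source used here gives the software behind these values. Their mean after trimming 2% at each end was 150 on every array. From these intensities log2(signal + 2.98) was computed, 2.98 being the 10th percentile of all values, with no further normalization. The constant shrinks changes of dim probe sets. The 64 AFFX controls were left out, and each fit kept the 27022 probe sets whose mean exceeded the 40th percentile.

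limma 3.58.1 (R 4.3.3, lmFit and eBayes with an intensity trend) was fitted to the 18 arrays of a tissue with a mean per group, or to all 36 for tissue contrasts, and tested on simulated data. Tests were two-sided, with Benjamini-Hochberg adjustment over all kept probe sets and calls at an adjusted p under 0.05. With 3 arrays a group, that number limits the precision.

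Members and gene lists were chosen with earlier results of these data known. Named genes were all members; of each cell death list the called genes (at most the 6 largest changes) or, with none called, the 2 of smallest p, which are printed for the cerebellum; and the 8 genes most like Hrk. Symbols came from the probe table (34958 probe sets with 1 symbol, 932 with several and 9211 with none; only the first were named). Same-numbered cerebellum arrays deviated together in every stg pair, but not in every tg or lh pair (r as low as 0.0404 and 0.0948), by a limit of 0.1. Alternatives were other constants (1 and 16), filters (none and the 60th percentile), quantile normalization, array weights, no trend, only the 6 arrays of a comparison, blocks, and leaving out arrays.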

Additional observations from a re-analysis of the deposited data

How the results depend on the processing

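Over 33 results and 462 alternative values, 426 were labelled the same, 16 lost a call, 18 counts moved and 2 values reversed. For a tested value the same meant its direction and side of the threshold. For a count it meant equal or close to the main count, so single calls could still change. For Hrk in the cerebellum it meant the same direction and a shift below the SD within its groups. The cause was not tested. The member calls in stg cerebellum, 2 as reported, were 1 with only the 6 arrays of the comparison and 1 to 2 on leaving out an array. Calls among the +/+ groups of the cerebellum (1) fell to 0 without any replicate number; in the forebrain (0) array weights gave 1. The 2 calls of the mean effect in the cerebellum fell to 0 without any replicate number. Of the other cell death genes in stg cerebellum (1), array weights and a block for line and run of records gave 2 each, the replicate block 4, no intensity trend and only the 6 arrays 0, and leaving out an array 0 to 1. The Hrk change in tg forebrain, 0.05, ran from -0.061 to 0.13 on leaving out an array, reversing at -0.040 without tg -/- array 1 and at -0.061 without tg +/+ array 3. The replicate block changed no member call. Hrk 1439854_at in the cerebellum stayed between 1.397 and 1.68 in tg, 1.36 and 1.98 in lh, and -0.62 and -0.26 in stg; its other probe set was not run under the alternatives. Tissue calls of the members were run under the alternatives only with Hrk and Bid counted in. Both genes are given without a test above, so that range is left out. Without them the main setting called 10 of 23, beside 58.2% of all probe sets. With 3 arrays a group and no detection calls used, the limit of detection of the dim Bid, Bak1 and Bcl2 probe sets is unknown.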
